A study of Mus musculus with 6 samples.

Results

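Of the genes measured in single cells of the mouse cardiogenic region at E10.5, in midgestation, 10 Wnt ligands are described here: Wnt2, Wnt2b, Wnt3, Wnt4, Wnt5a, Wnt5b, Wnt6, Wnt9b, Wnt10a and Wnt11. They were taken by gene symbol, each symbol matched 1 row, and they are 10 of the 19 genes with a Wnt symbol and 10 of the 32285 genes in the table. The embryos were wild type on the C57BL/6 strain and came from 3 vehicle samples and 3 streptozotocin (STZ) samples. STZ is a toxin of the insulin-producing beta cell. Dams pretreated with it were hyperglycaemic, dams given vehicle had normal glucose, and sires of both groups had normal glucose, so that the agent was given to the mother before mating. Per the labels the microdissected region also held non-cardiac mesoderm, ectoderm and endoderm, and each suspension was run with a 10x 3′ kit, which counts unique molecular identifiers (UMIs), one per captured RNA molecule. The counts stand in 1 pooled matrix whose barcodes end in a number from 1 to 6. No source used here ties that number to a sample, so the 6 numbered libraries could not be assigned to vehicle or STZ and no treatment comparison was made. Values are given for pooled cells and for each library, without a mean, SD or test between groups. The sample descriptions name a chromatin assay, whereas titles, molecule, kit and files are those of RNA, and the values are treated as RNA counts.

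Of 53362 barcodes, 35962 were kept that showed 2500 or more genes and a mitochondrial share of UMIs no higher than 10%, 4903 to 7136 per library, with a median of 30533 to 35634 UMIs per cell in the libraries. Cells were assigned to classes by marker genes, none of them a Wnt, counting a marker as present at 2 UMIs or more. A total of 24 classes held at least 50 cells, 22289 cells in all. Another 11505 cells passed no gate, 1073 passed both the endoderm and the ectoderm gate, 588 passed another combination of lineage gates and 456 passed more than 1 mesenchymal gate. Among kept cells 141 barcode sequences were shared between libraries, in 283 cells. Over all barcodes, kept or not, libraries 4 and 5 shared 1003 sequences, 4 and 6 shared 1597, and 5 and 6 shared 1423, against 66 to 374 for the other pairs, and 2890 kept cells had a sequence that occurred in another library. A level is the UMIs of a gene per 1000000 UMIs of the class (CPM). Because 3′ UMIs count molecules and not fragments, no length correction was applied, and levels of different genes are set side by side on this scale. Intervals are exact 95% Poisson intervals for levels and Clopper-Pearson intervals for shares of cells, and they cover counting error only.

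Wnt ligands are secreted, lipid-modified glycoproteins that act over short distances. Porcn attaches the lipid and Wls carries the ligand to the cell surface, where it binds a Frizzled receptor with the co-receptor Lrp5 or Lrp6 to stabilise beta-catenin, or Frizzled with Ror or Ryk to act on cell polarity and movement. In the embryonic heart region, Wnt2 and Wnt2b are known from the venous pole and lung-forming foregut mesoderm, Wnt5a and Wnt11 from second heart field and outflow tract growth, and Wnt9b and Wnt3 from signalling of facial ectoderm to the crest mesenchyme below it.

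The members sit at 8 separate chromosomal locations, 2 of which hold a pair. In the RefSeq annotation of GRCm38.p6, Wnt6 (chromosome 1, 74754342 to 74785322, plus strand) and Wnt10a (chromosome 1, 74792019 to 74804176, plus strand) lie in tandem 6696 bp apart. Wnt9b (chromosome 11, 103727362 to 103775272, minus strand) and Wnt3 (chromosome 11, 103774175 to 103818021, plus strand) overlap by 1098 bp at their annotated 5′ ends. The other members are Wnt2 (chromosome 6, 17985474 to 18032772, minus strand), Wnt2b (chromosome 3, 104944805 to 104961709, minus strand), Wnt4 (chromosome 4, 137277635 to 137299501, plus strand), Wnt5a (chromosome 14, 28504543 to 28527448, plus strand), Wnt5b (chromosome 6, 119432531 to 119544824, minus strand) and Wnt11 (chromosome 7, 98835084 to 98854747, plus strand).

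All 4 genes of the 2 pairs had their highest level in the same class, the surface ectoderm, so the promoter windows of the 3 that have one in the RefSeq table are shown. Of the 10 members, 8 matched the table, in 11 windows. Each window runs from 250 bases before to 50 bases after an annotated start, 5′ to 3′ on the strand of the gene, at chr1:74771642-74771941 (plus) for Wnt6, chr11:103773925-103774224 (plus) for Wnt3 and chr11:103749772-103750071 (minus) for Wnt9b, all GRCm38.p6. The start site of the Wnt3 window is the annotated 5′ end of the gene, whereas that of Wnt9b lies 25451 bp and that of Wnt6 17550 bp inside the gene, so the Wnt9b window is not at the end that overlaps Wnt3. Capitals mark CCAAT or its reverse complement ATTGG, the letters of the CCAAT box.
Wnt6: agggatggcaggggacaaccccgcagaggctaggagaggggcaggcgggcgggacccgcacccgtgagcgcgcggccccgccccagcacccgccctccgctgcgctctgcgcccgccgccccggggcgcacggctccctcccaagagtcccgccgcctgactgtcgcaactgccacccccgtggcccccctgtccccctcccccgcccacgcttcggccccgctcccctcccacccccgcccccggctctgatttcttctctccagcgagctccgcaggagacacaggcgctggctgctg
Wnt3: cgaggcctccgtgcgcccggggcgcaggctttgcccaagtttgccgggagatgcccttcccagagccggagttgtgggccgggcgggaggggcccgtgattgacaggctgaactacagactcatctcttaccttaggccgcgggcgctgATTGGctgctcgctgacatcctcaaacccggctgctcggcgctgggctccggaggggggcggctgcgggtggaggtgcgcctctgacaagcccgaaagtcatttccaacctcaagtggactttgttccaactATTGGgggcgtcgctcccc
Wnt9b: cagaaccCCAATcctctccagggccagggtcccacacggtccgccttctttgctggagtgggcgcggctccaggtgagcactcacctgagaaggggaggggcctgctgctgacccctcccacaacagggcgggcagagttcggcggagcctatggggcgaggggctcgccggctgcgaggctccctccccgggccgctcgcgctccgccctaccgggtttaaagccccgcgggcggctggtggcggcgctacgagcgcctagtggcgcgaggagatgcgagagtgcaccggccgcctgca
The Wnt3 window held 2 such matches, the Wnt9b window 1 and the Wnt6 window none. CCAAT on either strand was present in 4 of the 11 member windows (Wnt2, Wnt2b, Wnt3 and Wnt9b) and in 37.4% of all 32851 windows in the table. The TCF/LEF core CTTTGA, read on both strands, was present in 2 of the 11 windows (1 of Wnt11 and 1 of Wnt5b) and in 16.0% of all windows. TATAAA was found in 1 member window (Wnt11) and in 13.6% of all, and AGATAA in 0 of 11 and in 11.2% of all. GC content was 76.7% in the Wnt6 window, 71.7% in that of Wnt9b and 65.7% in that of Wnt3.

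Wnt6, Wnt3, Wnt9b and Wnt10a had most of their UMIs in surface ectoderm. Wnt4 was highest in surface ectoderm too, followed by endocardium. Wnt2 was highest in atrial cardiomyocytes, Wnt2b in Tbx4-positive foregut mesenchyme, Wnt11 in endocardium, Wnt5a in the anterior second heart field and Wnt5b in epicardium. The number of classes, out of 24, with at least 10 CPM was 21 for Wnt5a, 15 for Wnt5b, 9 each for Wnt2 and Wnt11, 8 for Wnt4, 3 for Wnt6, 1 each for Wnt3 and Wnt9b, and 0 for Wnt2b and Wnt10a. A highest class was counted as standing apart where it reached 10 CPM, was at least 2 times the next class and lay above it in every library with 20 cells of both. By that rule 3 of the 8 members that reached 10 CPM stood apart, Wnt3, Wnt6 and Wnt9b, against 10.8% of the 11993 genes that reached 10 CPM in some class. The median ratio of highest to next class was 1.43 over those 8 members and 1.11 over the 11993 genes. Among the 8 members that reached 10 CPM, the lowest library of the highest class lay above the highest library of the next class for 5, Wnt3, Wnt4, Wnt5a, Wnt6 and Wnt9b, against 27.1% of the 11993 genes. For Wnt3 the next class, myeloid, had 1 library with 20 cells, at 0 CPM. The members were chosen with earlier results of these data known. Wnt3 and Wnt9b reached 10 CPM only in surface ectoderm, the class that then stood apart. The shares and medians of members beside those of all genes are therefore descriptive.

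**Figure D1:**
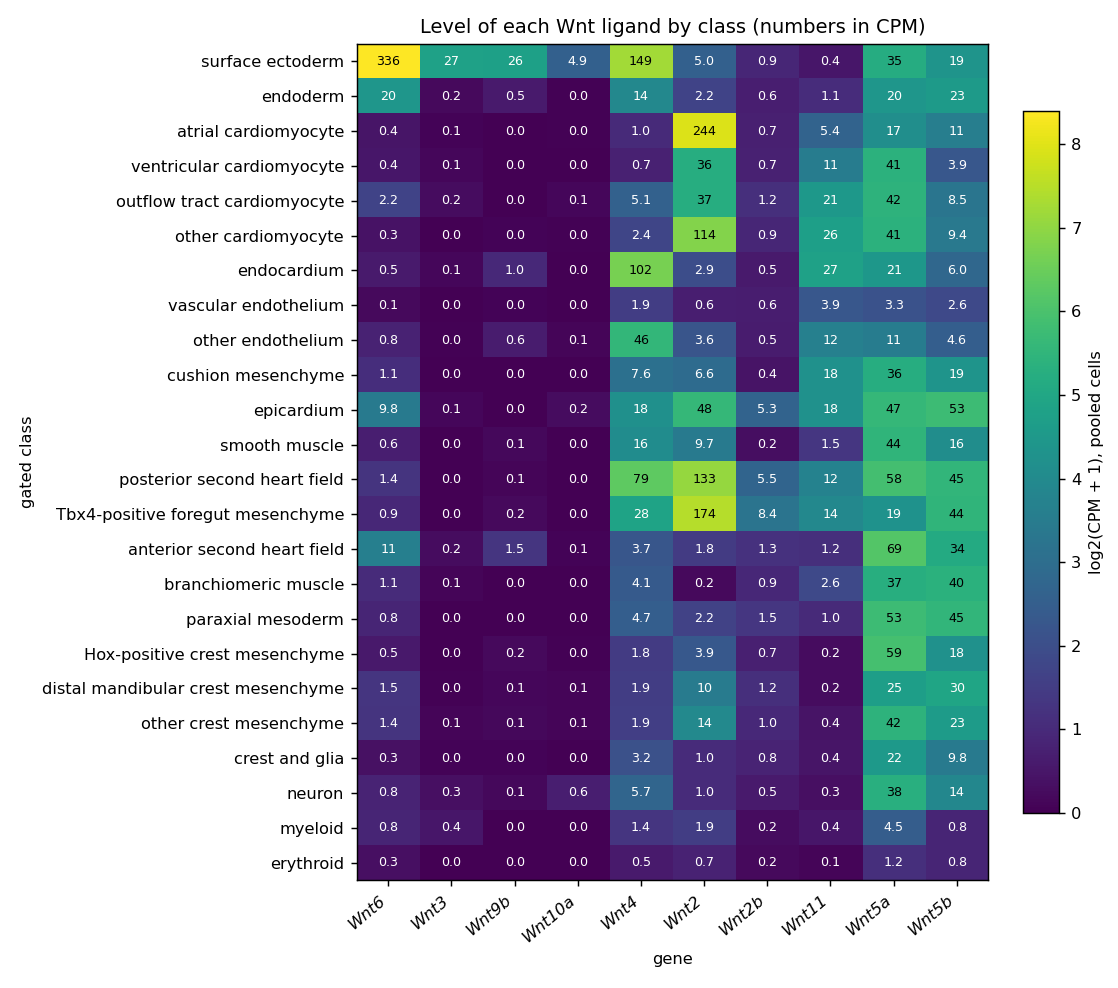
Level of the 10 Wnt ligands (columns) in the 24 gated classes (rows), pooled over libraries; colour is log2(CPM + 1) and the printed numbers are CPM. Surface ectoderm holds the highest values of Wnt6 (336), Wnt3 (27), Wnt9b (26), Wnt10a (4.9) and Wnt4 (149), atrial cardiomyocytes that of Wnt2 (244), and the Wnt5a and Wnt5b columns are filled in most rows.

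Erythroid cells, which should make no Wnt, served as a reference for free RNA. In 1435 erythroid cells, with a median of 64957 UMIs, the members lay between 0 and 1.21 CPM and 0 to 3.55% of cells held a UMI of a given member. A Wnt10a UMI was seen in 0 of the 1435 cells, which allows a share of up to 0.209% of cells with a UMI, taking 3 cells as the limit. That is a limit on detection at this depth and not on expression. The same number of free UMIs per cell gives a higher CPM in a shallower class, and the median depth was 25864 UMIs in surface ectoderm and 39132 in vascular endothelium, so these CPM values are not an upper limit for free RNA in other classes. The reference also differs by gene, with 1.21 CPM for Wnt5a and 0.0208 CPM for Wnt9b. Vascular endothelium, gated on vessel genes such as Aplnr and Sox17, had low levels of most members too, with 1.89 CPM of Wnt4, 0.65 CPM of Wnt2 and 0.15 CPM of Wnt6.

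Surface ectoderm, the sheet of epithelium that covers the pharyngeal arches, was the class with the most Wnt RNA. Its 1505 cells held 629 CPM of all 19 Wnt genes together, ahead of the posterior second heart field at 338 CPM. Wnt6 made up 53.3% of these UMIs, Wnt4 23.6%, Wnt5a 5.63%, Wnt3 4.31% and Wnt9b 4.15%. The class rests on Trp63 at 140 CPM against 4.67 CPM in all other kept cells, Tfap2a at 128 against 8.42 CPM and Perp at 112 against 9.70 CPM, while Epcam and Krt8, at 677 and 391 CPM, are shared with endoderm. The gate asked for 4 of 12 markers, and 545 of the 1505 cells held exactly 4. Of the 12 markers 9 reached 10 CPM in the class. Of the 11 endoderm markers, which include shared epithelial genes, 3 did. Of the 11 neural crest mesenchyme markers 6 did, with a sum of 360 to 417 CPM in the libraries, and their part in the ligand values was not tested.

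Wnt6, an ectodermal ligand of the canonical branch, reached 336 CPM in surface ectoderm (interval 330 to 341). It was 390, 356, 391, 313, 319 and 259 CPM in libraries 1 to 6. All 6 values lay far above those of endoderm, the next class, which were 22.1, 29.2, 28.6, 18.4, 13.9 and 16.1 CPM. The pooled ratio was 16.4 (interval 15.6 to 17.3). A Wnt6 UMI was found in 1399 of 1505 ectoderm cells, 93.0%, against 16.4% of endoderm cells and 0.627% of erythroid cells. Median depth was 25864 UMIs in ectoderm and 29926 in endoderm, and after thinning every cell to 5000 UMIs, which left out 4 cells of the whole set, the shares were 73.1%, 7.07% and 0.139%. The median ectoderm cell held 8 Wnt6 UMIs, and the quartiles were 4 and 13. Cells that passed the endoderm and the ectoderm gate together held 36.7 CPM of Wnt6, with 23.1% of cells positive, closer to endoderm than to ectoderm. Wnt6 was also present at 11.2 CPM in the anterior second heart field, where only 5.71% of cells held a UMI, and 3.61% after thinning. In epicardium it was at 9.85 CPM, with 13.2% of cells positive, and 3.78% after thinning. The epicardial libraries ran from 2.09 CPM in library 6 to 33.6 CPM in library 4.

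Wnt3, a canonical ligand of embryonic epithelia, was at 27.1 CPM in surface ectoderm (interval 25.6 to 28.7). The libraries gave 33.7, 27.0, 44.6, 21.4, 22.5 and 17.3 CPM. No other of the 24 classes exceeded 0.413 CPM, the value of myeloid cells, which rests on 2 UMIs in 73 cells. In endoderm 13 UMIs gave 0.165 CPM. The ectoderm-to-myeloid ratio was 65.6, with an interval of 18.1 to 542 because of those 2 UMIs, and only library 5 had 20 cells of both classes. Of all Wnt3 UMIs in kept cells, 74.2% came from surface ectoderm, a class with 3.23% of all UMIs. Outside the 24 classes, cells of both the endoderm and the ectoderm gate held 6.00%, with 3.01% of all UMIs. Cells of another combination of lineage gates held 7.49%, with 2.93% of all UMIs, and cells of no gate 8.26%, with 21.6%. A UMI was seen in 38.1% of ectoderm cells, and in 12.2% after thinning.

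Wnt9b, expressed in facial ectoderm and in the early kidney ducts, was at 26.1 CPM in surface ectoderm (interval 24.6 to 27.7). It was 33.4, 31.1, 41.6, 15.8, 16.6 and 21.8 CPM in libraries 1 to 6. The next class, the anterior second heart field, had 1.47 CPM, a ratio of 17.8 (interval 13.5 to 24.0), and the ectoderm was higher in 6 of 6 libraries. Endocardium held 0.954 CPM from 38 UMIs and erythroid cells 0.0208 CPM. Of all Wnt9b UMIs, 61.2% were in surface ectoderm, a class with 3.23% of the UMIs of all genes.

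Wnt10a, a ligand of skin appendages and teeth later in development, was the rarest member, with 375 UMIs in all kept cells. Its level in surface ectoderm was 4.91 CPM (interval 4.26 to 5.62), and 5.64, 5.37, 6.74, 4.38, 4.68 and 2.97 CPM in the 6 libraries. These values rest on 21 to 42 UMIs per library. The next class was neuron at 0.649 CPM from 5 UMIs. The ratio of 7.56 (interval 3.19 to 23.5) is that of the pooled cells. Ectoderm was above neuron in 5 of 5 libraries with enough neurons, which held 0 to 1.27 CPM, but the level did not reach 10 CPM.

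Wnt4 was the second most abundant ligand of the ectoderm. It signals in either branch depending on tissue. Surface ectoderm had 149 CPM (interval 145 to 152), with 166, 159, 177, 134, 134 and 128 CPM in libraries 1 to 6. Endocardium, the inner lining of the heart, came next at 102 CPM, with 112, 93.3, 124, 65.2, 119 and 85.2 CPM. The lowest ectoderm library lay above the highest endocardium library, and the pooled ratio was 1.45 (interval 1.40 to 1.51). Within the endothelium the level differed between the classes: 102 CPM in endocardium, 46.0 CPM in endothelial cells that passed neither or both sub-gates, and 1.89 CPM in vascular endothelium, where 0 to 5.84 CPM were found in the libraries. A Wnt4 UMI was present in 57.1% of endocardial and 4.04% of vascular cells, and in 26.5% of endocardial cells after thinning. Cushion mesenchyme, which forms from endocardium by epithelial-to-mesenchymal transition, held 7.57 CPM. The sub-gate of the endocardium used Npr3, Nfatc1 and 4 other genes, all 6 of which reached 10 CPM in the class, with a sum of 2368 to 2772 CPM in the libraries. Of the 10 cushion mesenchyme markers 8 also did and 1 was at 0, with a sum of 2127 to 2878 CPM. The lists share Tbx20, Gata4 and Hapln1, and the part of the others in the Wnt4 values was not tested.

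The posterior second heart field, the mesoderm that adds to the venous pole, held 79.3 CPM of Wnt4. Its libraries ran 7.71, 92.0, 86.7, 93.7, 70.7 and 94.8 CPM. Library 1 was the low value, with 49 cells in the class, and the other 5 lay within 70.7 to 94.8 CPM.

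Cells of the surface ectoderm often carried several of the 5 ectodermal ligands at once. A total of 71 of 1505 cells held none of Wnt3, Wnt4, Wnt6, Wnt9b and Wnt10a, 169 held 1, 490 held 2, 463 held 3, 286 held 4 and 26 held all 5. Of the 573 cells with Wnt3, 571 also held Wnt6, as did 512 of 523 cells with Wnt9b and all 170 cells with Wnt10a, against 93.0% of ectoderm cells as a whole. Wnt9b was found in 47.5% of Wnt3-positive cells and in 34.8% of the class, and Wnt10a in 13.8% and 11.3%. For Wnt4 against Wnt9b the shares were nearly equal, at 34.9% of Wnt4-positive cells and 34.8% of the class. Among Wnt10a-positive cells 92.9% held Wnt4, against 76.2% of the class, while 30.6% held Wnt9b. Wnt3-positive and Wnt3-negative cells had median depths of 26258 and 25566 UMIs. These shares describe cells pooled from 6 libraries and are not independent samples. Wnt3 and Wnt9b were both higher in each of libraries 1, 2 and 3 than in each of libraries 4, 5 and 6. The part of this in the pooled shares was not tested.

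The 5 ectodermal ligands differed between libraries more than most genes of the class. The highest library was at least 2 times the lowest for Wnt3 (2.58), Wnt9b (2.64) and Wnt10a (2.27), and below that for Wnt6 (1.51) and Wnt4 (1.38). Among all genes at 10 CPM or more in surface ectoderm, 2.78% passed 2 times and the median ratio was 1.25. Wnt10a lies under 10 CPM, so its ratio holds more counting error than those genes have. Library 3 was the highest for all 5, as it was for 26.8% of those genes. Library 6 was the lowest for Wnt3, Wnt4, Wnt6 and Wnt10a, as for 17.0% of the genes, and library 4 for Wnt9b. The summed level of the 12 ectoderm markers was 1564, 1596, 1592, 1722, 1522 and 1539 CPM in libraries 1 to 6, highest in library 4, and that of the endoderm markers in the same cells was 796, 811, 809, 956, 907 and 954 CPM. That of the 10 epicardial markers in these cells was 157, 160, 136, 135, 112 and 111 CPM. The erythroid markers there, globin among them, ran from 74.7 CPM in library 2 to 215 CPM in library 1. The part of any of these in the ligand values was not tested.

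**Figure D2:**
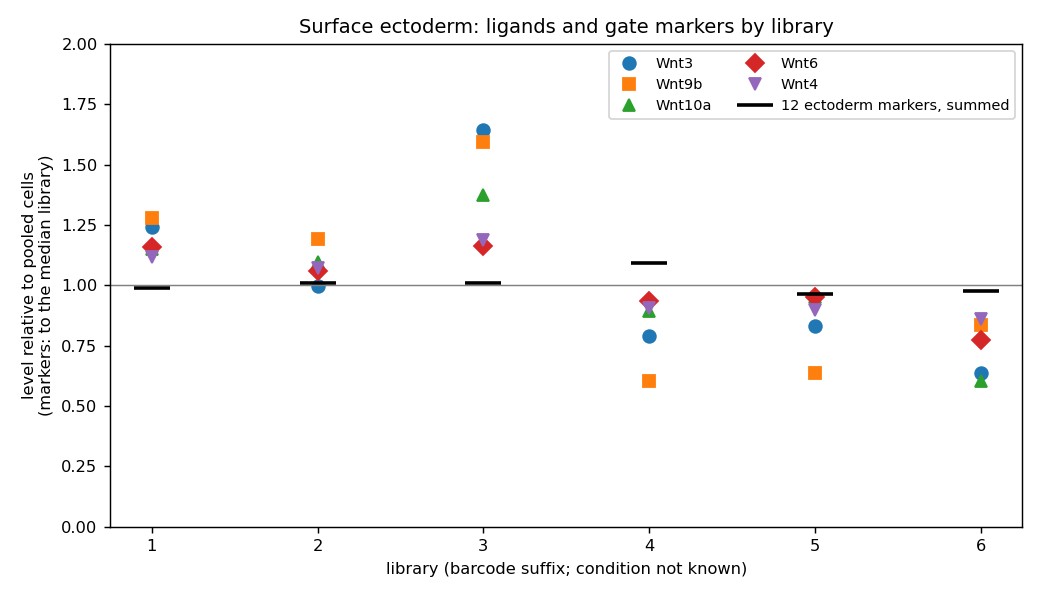
Surface ectoderm in libraries 1 to 6 (x axis): level of 5 ligands relative to their pooled level, and the summed level of the 12 gate markers relative to the median library (black bars). The 5 ligands are highest in library 3, where Wnt3 is at 44.6 CPM, while the marker sum stays between 1522 and 1722 CPM.

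Wnt2, a canonical ligand needed for lung budding and the inflow tract, had the second highest level of all members. In atrial cardiomyocytes it reached 244 CPM (interval 239 to 249) and made up 87.0% of the Wnt UMIs of the class. Libraries 1 to 6 had 250, 252, 426, 225, 182 and 212 CPM. Library 3, with 82 atrial cells, stood above the other 5, and without it the pooled level was 227 CPM. Library 3 was also the highest for 3294 of the 8234 genes at 10 CPM or more in atrial cells. Without the kept cells whose barcode sequence occurred in another library, the level was 276 CPM and the ratio of highest to lowest library 1.91. The class was gated on sarcomere genes, such as Tnnt2 at 4309 CPM, plus atrial genes, such as Angpt1 at 470 CPM against 49.8 CPM in other cells. Of the 7 atrial markers 5 reached 10 CPM in the class, and Sln and Bmp10 did not. Nr2f1 and Nr2f2 were nearer to other cells, at 149 against 119 CPM and 285 against 187 CPM. The sarcomere gene Myh7 was lower than in other cells, at 42.8 against 99.3 CPM. The gate asked for 3 atrial markers, and 285 of the 856 cells held exactly 3. The cardiomyocyte marker sum of the class was also lowest in library 3, at 35873 CPM against 42815 to 49187 CPM in the others. The part of this in the Wnt2 value was not tested. A Wnt2 UMI was found in 761 of 856 atrial cells, 88.9%, and in 2.30% of erythroid cells, and the shares after thinning were 54.2% and 0.0697%. Ventricular and outflow tract cardiomyocytes held 36.2 and 36.9 CPM. The libraries of ventricular cells ran from 28.4 to 51.8 CPM and did not overlap with the atrial ones. Cardiomyocytes that passed none or more than 1 chamber gate had 114 CPM.

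Of all Wnt2 UMIs in kept cells, 21.8% were in atrial cells, a class with 2.72% of the UMIs of all genes. Unsplit cardiomyocytes held 17.2% (4.58% of the UMIs of all genes), cells of no gate 18.0% (21.6%) and epicardium 10.4% (6.62%). Posterior second heart field held 8.49% (1.95%) and foregut mesenchyme 5.15% (0.902%). Tbx4-positive foregut mesenchyme, which surrounds the future lung and trachea, had 174 CPM (interval 166 to 182), with 142, 191, 169 and 210 CPM in libraries 3 to 6. Libraries 1 and 2 held only 3 cells each of that class and give no value. Posterior second heart field followed at 133 CPM, with 173, 83.4, 160, 141, 120 and 135 CPM in libraries 1 to 6. The library ranges of atrial cells, foregut mesenchyme, posterior second heart field and unsplit cardiomyocytes overlapped from one to the next. The order of neighbours is therefore not set beyond the spread of libraries. All atrial libraries, from 182 CPM, lay above those of posterior second heart field, up to 173 CPM, and unsplit cardiomyocytes, up to 135 CPM. Foregut mesenchyme, from 142 CPM in 4 libraries, also lay above unsplit cardiomyocytes. Atrial cells were above foregut mesenchyme in 4 of 4 libraries. The ratio of atrial cells to foregut mesenchyme was 1.40 (interval 1.34 to 1.47). With 1 more marker asked of each gate the order turned, with 210 CPM in posterior second heart field and 201 CPM in atrial cells. The anterior second heart field, by contrast, had 1.78 CPM of Wnt2.

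Wnt2b, the closest relative of Wnt2, stayed below 10 CPM in every class. It was highest in Tbx4-positive foregut mesenchyme at 8.38 CPM (interval 6.81 to 10.2, 99 UMIs), with 9.51, 8.46, 10.48 and 5.83 CPM in libraries 3 to 6. Posterior second heart field at 5.48 CPM and epicardium at 5.33 CPM came next, and their library ranges overlapped with it and with each other. Below these 3 came paraxial mesoderm at 1.51 CPM, whose libraries did not reach those of epicardium. In contrast to Wnt2, atrial cardiomyocytes held 0.674 CPM of Wnt2b. Of the 82 foregut cells with Wnt2b, 60 also held Wnt2 (73.2%), against 74.8% of the class. In the posterior second heart field the share was 62.4% against 55.6%. Cells with Wnt2b there had a median depth of 33176 UMIs and those without it 31232 UMIs, and the part of depth was not tested.

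**Figure D3:**
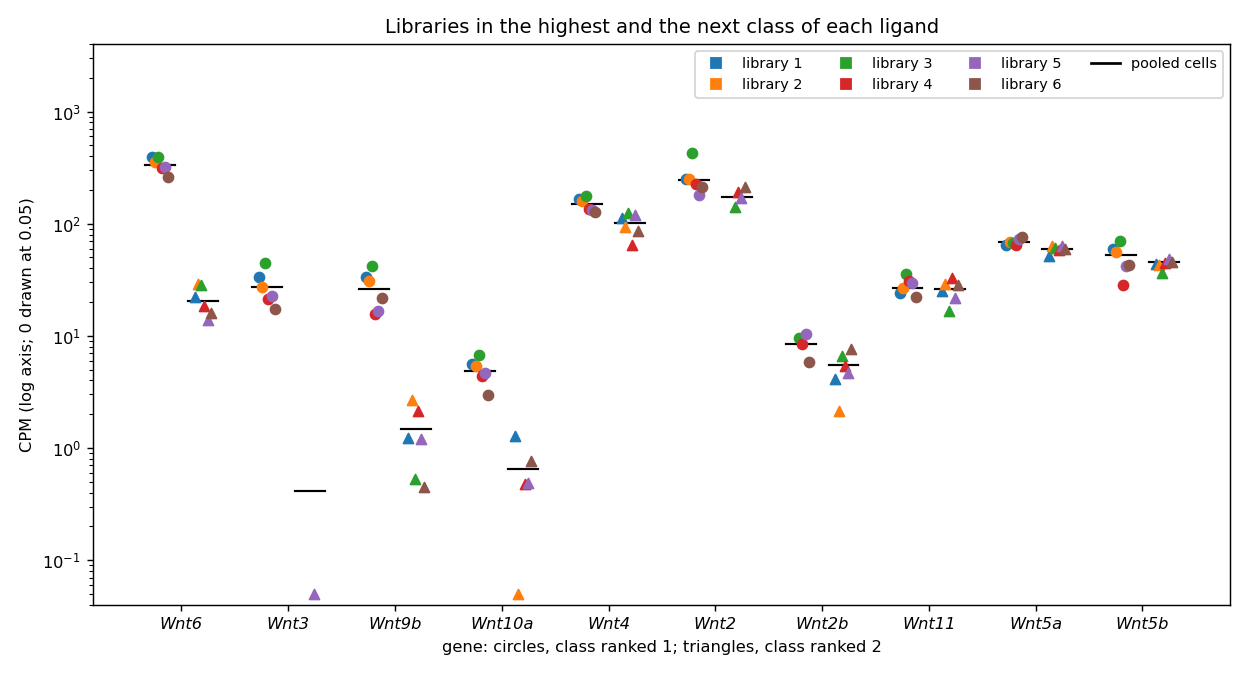
Level of each ligand in single libraries (colours; CPM, log axis) in its highest class (circles) and the next class (triangles), with pooled levels as black lines and libraries with under 20 cells left out. Circles and triangles are far apart for Wnt6, Wnt3 and Wnt9b and overlap for Wnt2, Wnt2b, Wnt11 and Wnt5b; the Wnt2 circle of library 3 at 426 CPM stands above the other 5.

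Wnt11, a ligand of the polarity branch known from the outflow tract, was highest in endocardium and unsplit cardiomyocytes, among 9 classes at 10 CPM or more. Endocardium had 26.6 CPM (interval 25.1 to 28.3), with 23.8, 26.8, 35.8, 31.1, 29.5 and 22.0 CPM in libraries 1 to 6. Unsplit cardiomyocytes had 26.0 CPM, with 25.3, 28.9, 16.5, 33.0, 21.9 and 28.4 CPM. The 2 classes did not differ beyond the libraries: the ratio was 1.02 (interval 0.947 to 1.11) and endocardium was the higher in 2 of 6. Without library 3, unsplit cardiomyocytes were at 27.2 CPM and endocardium at 25.8 CPM, and without library 5 at 26.8 and 26.2 CPM. Outflow tract cardiomyocytes followed with 21.2 CPM, from 13.3 to 36.1 CPM in the libraries, then epicardium with 18.0 CPM and cushion mesenchyme with 17.8 CPM. Foregut mesenchyme had 14.3 CPM, posterior second heart field 12.2 CPM and endothelial cells that passed neither or both sub-gates 11.7 CPM. Ventricular cells had 10.6 CPM and atrial cells 5.39 CPM. With 1 more marker asked of each gate, the outflow class, then of 433 cells, had 52.9 CPM and became the highest, above endocardium at 23.9 CPM in 6 of 6 libraries. Wnt4 and Wnt11 were found together in 340 endocardial cells, 58.2% of those with Wnt4, against 47.9% of the class. Endocardial cells with Wnt4 had a median depth of 37163.5 UMIs and those without it 34718.5 UMIs. The part of depth in these shares was not tested.

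Wnt5a, the main ligand of the polarity branch, was the member with the most UMIs, 51601 in 17725 cells. It was highest in the anterior second heart field, the pharyngeal mesoderm that builds the outflow tract, at 69.3 CPM (interval 66.6 to 72.1). Libraries 1 to 6 had 64.5, 69.3, 67.2, 64.5, 73.4 and 75.9 CPM, the narrowest range of any member, with a ratio of 1.18 between highest and lowest. Of genes at 10 CPM or more in that class, 3.16% varied at least 2 times, with a median ratio of 1.28. Hox-positive crest mesenchyme came next at 59.2 CPM, from 51.9 to 63.7 CPM, below the lowest library of the anterior second heart field, whereas posterior second heart field, the third class, ran from 35.0 to 119 CPM and overlapped with it. Without library 5, the posterior second heart field was the highest class instead, at 70.8 CPM against 68.5 CPM, and with 1 more marker per gate Hox-positive crest was, at 60.5 CPM against 54.6 CPM. Posterior second heart field (57.9 CPM), paraxial mesoderm (52.6 CPM), epicardium (46.9 CPM), smooth muscle (44.4 CPM) and outflow tract, unsplit and ventricular cardiomyocytes (41.7, 41.0 and 40.7 CPM) overlapped in their library ranges with their neighbours in the order. Atrial cardiomyocytes had 16.9 CPM, with 13.4 to 20.4 CPM in the libraries. They were thus low in Wnt5a and high in Wnt2, while ventricular cells had similar levels of both. Vascular endothelium had 3.33 CPM and the deeper erythroid cells 1.21 CPM. Cells of no gate held 60.7 CPM and 33.3% of all Wnt5a UMIs, against 21.6% of the UMIs of all genes. A large part of this ligand thus lies outside the named classes. The share in cells of no gate was also above 21.6% for Wnt5b (29.1%), Wnt2b (28.1%) and Wnt4 (27.6%), and below it for the remaining members.

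Wnt5b, a near relative of Wnt5a, was highest in epicardium, the outer covering of the heart, at 52.8 CPM (interval 51.3 to 54.4). Libraries 1 to 6 had 59.6, 55.8, 70.5, 28.3, 41.8 and 42.8 CPM. The highest was 2.49 times the lowest, while 4.05% of genes at 10 CPM or more in epicardium passed 2 times, with a median of 1.25. The summed level of the 10 epicardial markers was 2029, 2010, 2031, 1412, 1502 and 1474 CPM in the same libraries, and each of libraries 1, 2 and 3 lay above each of libraries 4, 5 and 6 in both. The part of this in the Wnt5b value was not tested. Posterior second heart field (45.3 CPM), paraxial mesoderm (45.0 CPM), foregut mesenchyme (43.9 CPM) and branchiomeric muscle (39.7 CPM) overlapped with epicardium. Epicardium was above posterior second heart field in 3 of 6 libraries. In cardiomyocytes Wnt5b was lower, with 3.88 CPM in ventricular and 11.2 CPM in atrial cells. Epicardium carried a mixture of ligands in which none prevailed: Wnt5b made up 25.1%, Wnt2 22.7%, Wnt5a 22.3%, Wnt11 8.57%, Wnt4 8.36% and Wnt9a 5.16% of its Wnt UMIs. Wnt2 and Wnt4 differed there between libraries, Wnt2 from 33.7 to 95.9 CPM and Wnt4 from 6.86 to 29.3 CPM, while Wnt5a kept to 43.4 to 51.6 CPM.

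**Figure D4:**
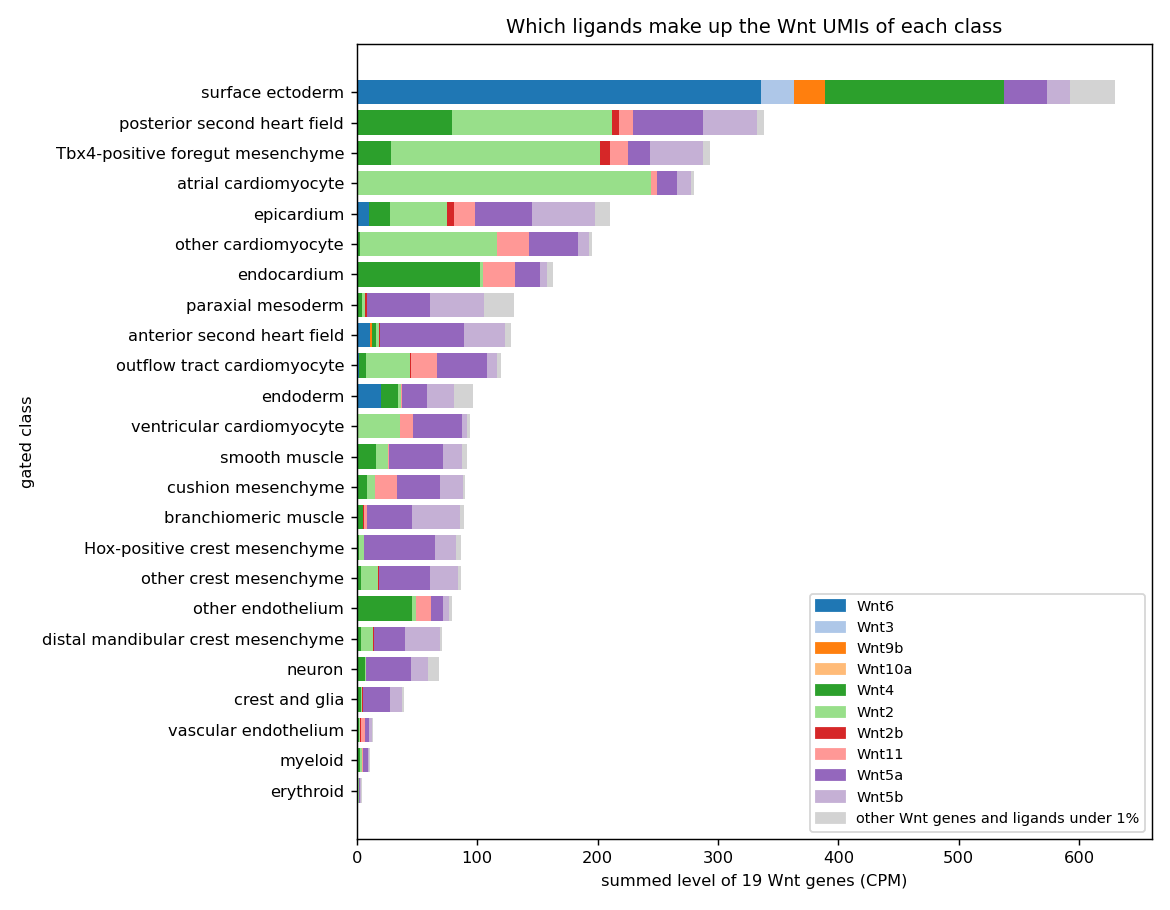
Summed level of all 19 Wnt genes in each class (bar length, CPM), divided by ligand; grey holds the other 9 Wnt genes and members under 1% of the class. Wnt6 fills 53.3% of the surface ectoderm bar of 629 CPM, Wnt2 87.0% of the atrial bar of 280 CPM and Wnt4 62.8% of the endocardial bar of 163 CPM.

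Across the 10 members, 5 varied at least 2 times between libraries within their highest class: Wnt2, Wnt3, Wnt5b, Wnt9b and Wnt10a. The share of all genes at 10 CPM or more that did so was 4.88% in atrial cardiomyocytes, where Wnt2 had a ratio of 2.34, 2.98% in endocardium, where Wnt11 had 1.63, and 3.9% in foregut mesenchyme, where Wnt2b stayed below 2 over 4 libraries. With 1 more marker per gate 3 members passed 2 times, and 4 without the kept cells whose barcode sequence occurred in another library, when Wnt2 no longer did.

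The other 9 Wnt genes were sparse. Wnt16 was at 21.9 CPM in paraxial mesoderm, Wnt7b at 17.3 CPM in surface ectoderm and 11.0 CPM in endoderm, and Wnt9a at 10.8 CPM in epicardium; these 3 reached 10 CPM in a class and none stood apart by the rule above. Wnt16 was 10.8 times the next class in the pooled cells but was higher in 4 of 6 libraries only. Another 5 stayed under 1 CPM everywhere. For export, Wls, the carrier of Wnt proteins, was at 280 CPM in outflow tract cardiomyocytes, 245 CPM in epicardium and 243 CPM in surface ectoderm, and at 5.75 CPM in erythroid cells. Porcn, the acyltransferase, was at 15.3 CPM in neurons and 3.23 CPM in surface ectoderm. It stood apart by the same rule, as 1 of these 2 genes, against 10.8% of all genes that reached 10 CPM in some class.

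Receptors were broadly present in the classes that held the ligands. Of 16 receptor and co-receptor genes, 11 reached 10 CPM in surface ectoderm, in the anterior second heart field and in foregut mesenchyme, 10 in endocardium, and 9 in atrial cardiomyocytes and in epicardium. Among all 32285 genes, 25.5% to 28.0% reached 10 CPM in these classes. In surface ectoderm the highest were Ror1, a receptor of the Wnt5a branch, at 165 CPM, Ryk at 117 CPM, Fzd2 at 94.9 CPM and Fzd3 at 93.6 CPM. Fzd6, a Frizzled linked to hair and skin polarity, was at 27.6 CPM in surface ectoderm and 13.2 CPM in endoderm. Of the 13 receptors that reached 10 CPM in some class, 1 (Fzd6) stood apart, a share near the 10.8% of all genes. In the anterior second heart field Fzd2 led at 152 CPM, and in foregut mesenchyme Ror1 (139 CPM) and Ror2 (122 CPM). Ryk, a receptor with a Wnt-binding ectodomain, led in atrial cells (87.5 CPM), epicardium (123 CPM) and endocardium (96.7 CPM).

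Targets and feedback genes of the beta-catenin branch were counted in the 6 classes in which a member was highest, and not in the other classes. In foregut mesenchyme 7 of 10 reached 10 CPM. The number was 5 in surface ectoderm and the anterior second heart field, 4 in endocardium and 3 in atrial cells and epicardium, where 25.5% and 26.8% of all genes reached that level. Axin2, a feedback inhibitor that reads out the branch, was at 28.8 CPM in foregut mesenchyme, 15.2 CPM in surface ectoderm, 13.6 CPM in the anterior second heart field and 5.34 CPM in atrial cardiomyocytes. Nkd1, another inhibitor, was at 67.2 CPM in foregut mesenchyme and 13.4 CPM in atrial cells. The library ranges of Axin2 in these 2 Wnt2-rich classes, 26.9 to 34.0 CPM in foregut mesenchyme and 3.56 to 8.42 CPM in atrial cells, did not overlap. Lef1, a nuclear partner of beta-catenin, was highest in branchiomeric muscle at 166 CPM, as was its relative Tcf7 at 56.4 CPM, in a class where no member but Wnt5a and Wnt5b exceeded 10 CPM. Znrf3, which removes Frizzled from the membrane, was highest in surface ectoderm at 178 CPM. Of the 9 targets that reached 10 CPM in some class, 1 (Tcf7) stood apart, a share near the 10.8% of all genes.

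**Figure D5:**
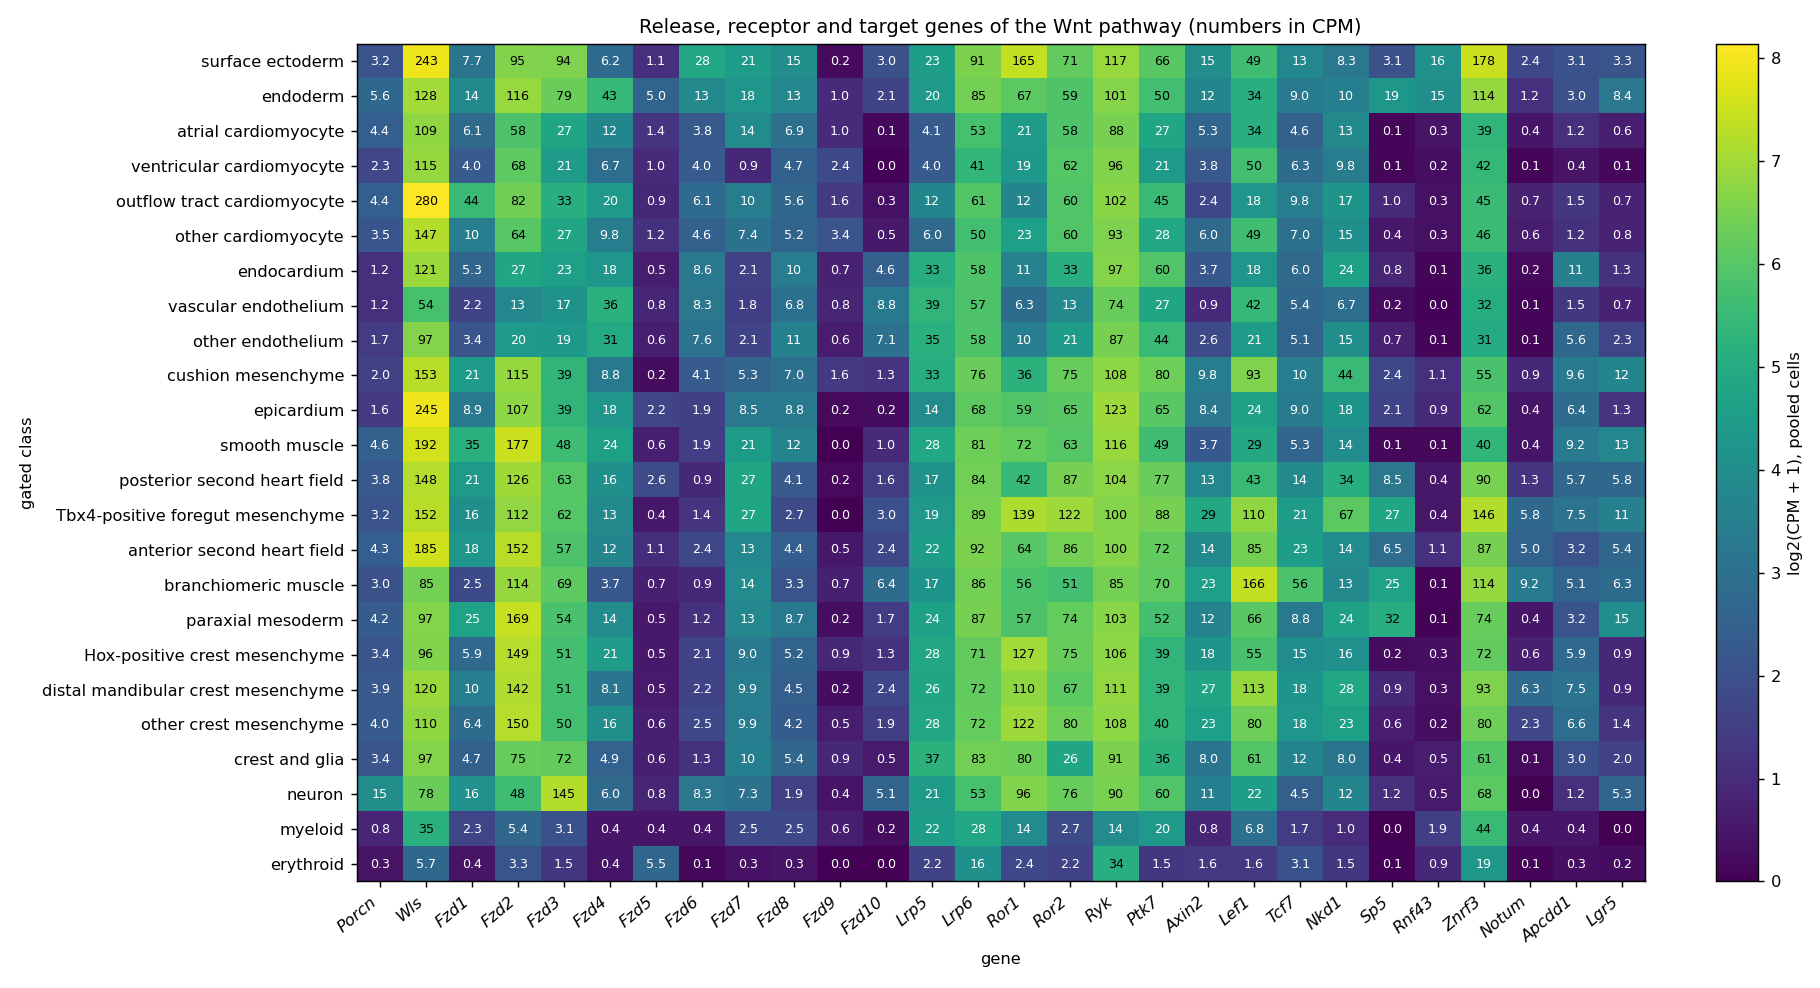
Level of 2 release genes, 16 receptors and 10 target genes (columns) in the 24 classes (rows); colour is log2(CPM + 1) and the numbers are CPM. Wls, Fzd2, Lrp6 and Ryk are filled in nearly all rows, and the target genes Axin2, Nkd1 and Lef1 are higher in foregut mesenchyme than in atrial cardiomyocytes.

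The genes most like each ligand were taken as the 3 with the highest Pearson correlation of log2(CPM + 1) over the 24 classes, among genes other than Wnts at 10 CPM or more in some class. The correlations are descriptive, since classes share libraries and some of these genes served as gate markers. Outside surface ectoderm, Wnt3 did not exceed 0.413 CPM, Wnt10a 0.649 CPM and Wnt9b 1.47 CPM in any class. Their correlations therefore rest largely on that class, and other genes confined to it would also score high. Kremen2, which encodes a receptor for the Wnt antagonist Dkk1, came first for Wnt3 (r = 0.980), Wnt9b (0.938) and Wnt10a (0.969), and was highest in surface ectoderm at 19.7 CPM. Krt15, a gate marker, and the gap junction gene Gjb2 followed for Wnt3, Sp6 and Foxi2 for Wnt9b, and Krt15 and Foxi2 for Wnt10a. Wnt6 was most like Ppl (0.963), Sfn (0.950) and Il17re (0.949), all highest in surface ectoderm. Wnt2 was nearest to Tbx5 (0.913), a T-box factor of the atria and lung mesoderm that served as a gate marker, followed by Gm43050 and the potassium channel gene Kcnq3. Wnt2b was nearest to Rspo1 (0.893), which encodes a Wnt-enhancing ligand, then Aldh1a2 (0.892), a retinoic acid enzyme and gate marker, and Adamts20. Wnt11 was nearest to Gata4 (0.898), also a gate marker, then Ugp2 and Bmp6. Wnt5a was nearest to the BMP receptor gene Bmpr1a (0.897), the Frizzled gene Fzd2 (0.897) and Armcx5, and Wnt5b to Epha4 (0.948), Magi2 and Ttc39c. Wnt4 had the lowest first value, 0.827 for the muscarinic receptor gene Chrm3, ahead of Samd5 and Dennd4c.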

How the data were processed

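Single-cell RNA counts came from 6 samples, 3 vehicle and 3 STZ. The deposited matrix holds whole-number UMI counts per gene and barcode, made by the authors with CASAVA 1.8, Cell Ranger 5.0.0 and Seurat 4 on mm10, per the submitters' processing notes. Whether intronic reads or strand entered the counts is not given in the sources used here. Barcode numbers could not be tied to samples, so the planned edgeR test of STZ against vehicle was not run.

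Cells with at least 2500 genes and at most 10% mitochondrial UMIs were kept; 17029 barcodes failed the first and 371 more the second. No doublet caller was run, and cells passing gates of 2 lineages were set aside. Lineage gates were read first, mesenchymal gates in the remaining cells, then sub-gates within cardiomyocytes, endothelium and crest mesenchyme. Gate thresholds and precedence rules were set after seeing the data, from marker counts, gate overlaps and leading genes. UMIs were summed per class and library with Python 3.11.15, numpy 2.4.6, scipy 1.17.1 and pandas 2.3.3. The ranking and the rule for standing apart were tested on simulated class and library sums with counting error only. The gating and summing were not tested in this way. Named genes were all members, the 4 highest genes at 10 CPM or more of each pathway list in a member's highest class, the list members highest elsewhere, and 3 genes of like pattern per member. Members and lists were chosen with earlier results of these data known. Alternatives were another cell filter, gates with 1 marker more or fewer, thinning to 5000 UMIs, removal of barcodes shared among kept cells or among all barcodes (the latter chosen after seeing the data), medians of libraries and each library left out.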

Additional observations from a re-analysis of the deposited data

How the results depend on the processing

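No paired analysis was possible because the barcode numbers of the libraries could not be tied to samples, so the fit with a replicate block, edgeR and DESeq2 were not run. The highest class stayed the same for 7 of 10 ligands with 1 more marker per gate, and for 8 to 10 when 1 library was left out. With 1 more marker, Wnt2 was at 210 CPM in posterior second heart field and 201 CPM in atrial cells, Wnt5a at 60.5 CPM in Hox-positive crest and 54.6 CPM in the anterior second heart field, and Wnt11 was highest in outflow cells. Without library 5 Wnt5a was at 70.8 CPM in posterior and 68.5 CPM in anterior second heart field, and without library 3 or library 5 Wnt11 was higher in unsplit cardiomyocytes. The number of ligands standing apart was 4 with 1 more marker, when Wnt11 joined, 2 with 1 fewer, and 2 to 3 with 1 library left out. Wnt3 dropped out with 1 fewer marker and without library 5 because no library then held 20 myeloid cells, while its ratio was 50.1 with 1 fewer marker. The number of ligands at 2 times or more between libraries was 5, and 3 with 1 more marker, where the cause was not tested. The looser filter of 1000 genes and 20% mitochondrial UMIs and the removal of barcodes shared among kept cells moved no level beyond its counting interval. Removal of kept cells whose sequence occurred in another library among all barcodes, chosen after seeing the data, left the highest class of all 10 ligands and the 3 that stood apart as they were, moved 4 levels beyond that interval (Wnt2 to 276 CPM, Wnt4 to 155, Wnt5b to 54.6 and Wnt6 to 347) and left 4 ligands at 2 times or more. Over all alternatives, levels in the highest class lay between 0.787 and 1.29 times the values given. Depth limits Wnt2b and Wnt10a most, with 99 and 208 UMIs in their highest classes. Myeloid and neuronal values rest on few cells per library, and cells with no gate are 32.0% of those kept.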

Other observations

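In surface ectoderm each of libraries 1, 2 and 3 lay above each of libraries 4, 5 and 6 for each of the 5 ectodermal ligands. These 2 sets of libraries lay close for some ligands, as for Wnt3 with 27.0 CPM in library 2 and 22.5 CPM in library 5. In library order, Wnt6 was at 390, 356, 391, 313, 319 and 259 CPM, Wnt4 at 166, 159, 177, 134, 134 and 128 CPM, and Wnt9b at 33.4, 31.1, 41.6, 15.8, 16.6 and 21.8 CPM. Wnt3 was at 33.7, 27.0, 44.6, 21.4, 22.5 and 17.3 CPM and Wnt10a at 5.64, 5.37, 6.74, 4.38, 4.68 and 2.97 CPM. Of all genes at 10 CPM or more in the class, 17.7% divided the same way and 11.2% the opposite way. The summed epicardial markers in these cells were at 157, 160, 136, 135, 112 and 111 CPM, with libraries 3 and 4 nearly equal (135.5 and 135.3 CPM). The endoderm markers divided the opposite way, at 796, 811, 809, 956, 907 and 954 CPM. The part of these markers in the ligand values was not tested. Wnt2 in atrial cells (250, 252, 426, 225, 182 and 212 CPM) and Wnt5b in epicardium (59.6, 55.8, 70.5, 28.3, 41.8 and 42.8 CPM) also divided that way, as did 14.4% and 21.0% of the genes of those classes. Wnt5a in the anterior second heart field and Wnt11 in endocardium did not. Wnt2b could not be placed, since foregut mesenchyme gave no value in libraries 1 and 2. The epicardial markers in epicardium divided so too, at 2029, 2010, 2031, 1412, 1502 and 1474 CPM. Libraries 4, 5 and 6 are also those that shared 1003 to 1597 barcode sequences with each other over all barcodes, against 66 to 374 for the other pairs. The part of either in the ligand values was not tested. The sets were seen in these values, so the number of ligands that divide this way is not a test of them. No source used here ties a library to vehicle or STZ. Whether the sets match the groups of the study is therefore not known, and they were not tested.

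The number of cells per class differed between libraries. Tbx4-positive foregut mesenchyme held 3, 3, 95, 68, 97 and 103 cells in libraries 1 to 6, and posterior second heart field 49, 40, 62, 166, 288 and 177.

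Several single values stood far from the rest of their class. Wnt4 in the posterior second heart field was 7.71 CPM in library 1 and at least 70.7 CPM in the others. Wnt5a in paraxial mesoderm was 7.21 CPM in library 1, with 25 cells, and 36.6 to 67.8 CPM in the others. Wnt6 in epicardium was 33.6 CPM in library 4 and at most 12.3 CPM in the others, and Wnt2 in epicardium 95.9 CPM in library 4 and at most 56.1 CPM in the others.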
